A study of Mus musculus with 9 samples.

Results

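Cholangiocytes are the epithelial cells that line the bile ducts. A set of 10 genes that mark them, or that come on when ductules multiply around the portal tracts of an injured liver, was described in the livers of 9 mice. The genes were Krt7, Krt19, Krt23, Epcam, Sox9, Cldn4, Cldn7, Cd24a, Prom1 and Muc1, and all 10 were found among the 17846 genes of the files by their Entrez identifiers. They were chosen by name from the read counts and TPM values of all 3 groups, with results of these data already known, so their levels and differences are given as a description and carry no test. The male, wild-type mice of the strain labelled C57/BL fell into 3 groups of 3. Control mice ate normal chow, NASH mice ate the Ath diet (rich in cholesterol and cholate) for 20 weeks and stayed sedentary, and NASH+Exercise mice began 8 weeks of treadmill training after 12 weeks on the same diet, at 20 weeks of age. The labels give their treatment as exercise together with the diet, and whether it went on through the training weeks is not spelled out in the sources used here. Each mouse gave 1 library of whole liver, so a value below is the RNA of all liver cells together. In such bulk RNA, fewer cells of a type and less RNA per cell cannot be told apart.

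Bile duct epithelium is a thin tube of polarised cells within a mass of hepatocytes. Its cells carry a cytoskeleton of simple keratins (Krt7 and Krt19), adhesion molecules such as Epcam, claudins that seal the tight junctions (Cldn4 and Cldn7), membrane glycoproteins of the apical face (Muc1 and Prom1) and the transcription factor Sox9. In chronic liver injury small ductules expand, a change called the ductular reaction, and some hepatocytes take up part of the duct program, Sox9 among it. The label of the set was checked against duct genes outside it. Cftr, a chloride channel of bile secretion, and Ggt1, a membrane peptidase, were under 1 TPM in every mouse, and Spp1, which duct cells and macrophages both make, was between 17.5 and 520 TPM.

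The promoters of the claudin, mucin, adhesion and keratin genes are shown because these genes were highest in the same mouse. RefSeq promoter windows (250 bases before to 50 after a gene's start, GRCm38.p6) were found for 7 of the 10 genes. Krt19, Sox9 and Cd24a are not shown. The 4 windows below are Cldn4 (chr5:134946885-134947184, minus strand), Muc1 (chr3:89228806-89229105, plus strand), Epcam (chr17:87635729-87636028, plus strand) and Krt7 (chr15:101412153-101412452, plus strand), each written 5′ to 3′ on the strand of its gene. Capitals mark matches to the motifs listed after them.
Cldn4: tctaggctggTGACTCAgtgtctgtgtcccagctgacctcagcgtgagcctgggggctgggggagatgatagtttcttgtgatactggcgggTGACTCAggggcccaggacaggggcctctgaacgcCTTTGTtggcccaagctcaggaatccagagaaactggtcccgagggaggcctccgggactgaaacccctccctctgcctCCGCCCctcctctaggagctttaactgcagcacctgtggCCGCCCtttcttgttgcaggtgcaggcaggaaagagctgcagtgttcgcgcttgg
Muc1: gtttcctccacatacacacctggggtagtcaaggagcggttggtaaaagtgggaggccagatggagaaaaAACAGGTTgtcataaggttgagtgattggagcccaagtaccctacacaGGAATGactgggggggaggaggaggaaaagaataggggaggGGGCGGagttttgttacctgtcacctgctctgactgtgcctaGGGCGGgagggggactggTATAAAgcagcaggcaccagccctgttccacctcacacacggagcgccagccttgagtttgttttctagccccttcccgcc
Epcam: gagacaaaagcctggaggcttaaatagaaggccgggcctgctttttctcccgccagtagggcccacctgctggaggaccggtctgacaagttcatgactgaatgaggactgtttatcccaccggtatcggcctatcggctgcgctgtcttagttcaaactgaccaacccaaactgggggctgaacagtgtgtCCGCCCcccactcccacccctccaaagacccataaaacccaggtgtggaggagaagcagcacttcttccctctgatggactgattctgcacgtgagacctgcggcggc
Krt7: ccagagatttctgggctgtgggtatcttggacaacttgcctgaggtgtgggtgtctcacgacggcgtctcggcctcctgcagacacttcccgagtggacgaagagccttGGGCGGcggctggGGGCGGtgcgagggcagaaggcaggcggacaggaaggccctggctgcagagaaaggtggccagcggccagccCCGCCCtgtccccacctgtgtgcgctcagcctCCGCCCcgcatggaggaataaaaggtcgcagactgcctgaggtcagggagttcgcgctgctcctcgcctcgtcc

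For these windows 7 motifs were searched on both strands, and none of them overlapped another in the windows shown. The GC box GGGCGG was the most shared, in 6 of the 9 windows of members (Cldn7 and Prom1 each have a pair of windows), and 35.7% of all 32851 windows held it. It occurred 4 times in Krt7, 2 times in Cldn4, 2 times in Muc1 and 1 time in Epcam. The AP-1 motif TGANTCA was in 3 member windows, 2 of them those of Prom1, and stood at 2 places in Cldn4. It was in 7.81% of all windows. A match to AACCNGTT, the motif of grainyhead-like factors, was in 3 member windows (Muc1 and both of Prom1) and in 2.09% of all. Muc1 also had the TATA box TATAAA, found in 13.6% of all windows, and the TEAD motif GGAATG, found in 14.7% of all and in 2 member windows. The SOX motif ACAAAG was in Cldn4 alone of the member windows and in 18.7% of all. The RBPJ motif GTGGGAA, in 6.38% of all windows, had 0 matches. A match describes the letters and is no evidence of binding.

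Library depth was even, between 20086004 and 22495449 estimated counts per mouse, and TMM factors ran from 0.8 to 1.23. The 10 genes took few of these reads, with 439 to 570 counts in all in a Control mouse, 811 to 2400 in a NASH mouse and 620 to 986 in a NASH+Exercise mouse. All 10 passed the filter on low counts, which asks for about 10 counts in as many mice as a group holds. Only 4 of them had 10 counts or more in every mouse (Krt23, Epcam, Sox9 and Cd24a), 5 reached that in both groups on the Ath diet but not in Control, and Cldn4 reached it in NASH alone. A gene that passes through its high group only was bound to differ, so the number that passed says nothing in itself. NASH replicate 19 stood apart from the other NASH mice in these genes. In CPM it was the highest of all 9 mice in 8 of the 10 genes, where 16.7% of all genes tested were highest in that mouse, and its CPM was 1.23 to 4.81 times the mean of the other 2 NASH mice, with a median of 3.14 against 0.995 over all genes tested. Differences of the 10 genes that rest on the NASH group are therefore also given without it, as are those of other named duct genes that lost a call, turned in direction or moved by over 1.5 times.

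**Figure D1:**
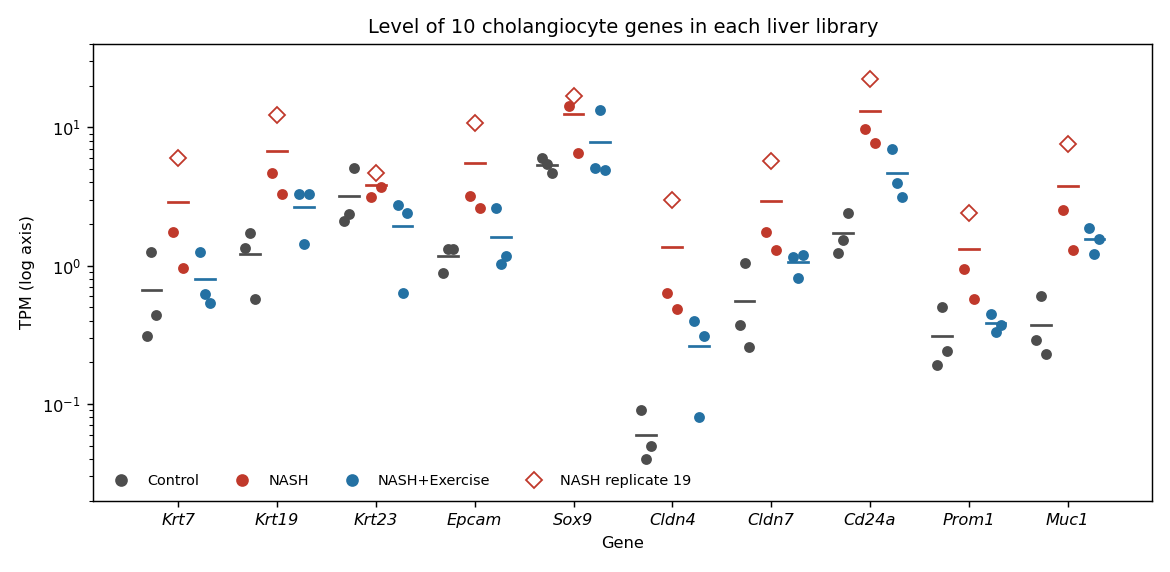
TPM (transcript abundance scaled by gene length and library, log axis) of the 10 genes in each of the 9 mice, with 1 point per mouse, a bar at each group mean and an open diamond for NASH replicate 19. The diamond is the topmost point in every gene but Krt23, for example 22.2 TPM in Cd24a, while in Krt23 a Control mouse is highest with 5.05 TPM.

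Among the keratins, which form the intermediate filaments of epithelia, Krt19 and Krt7 had the highest values in NASH, whereas Krt23 had its highest in a Control mouse. Values are listed here and below as TPM in Control replicates 3, 4 and 29, then NASH replicates 5, 19 and 20, then NASH+Exercise replicates 8, 18 and 22. Krt19 (chr11:100140810-100145926) was 1.34, 1.73 and 0.57 in Control, 4.68, 12.2 and 3.31 in NASH and 3.27, 1.43 and 3.31 in NASH+Exercise. All NASH mice lay above all Control mice, whereas the NASH+Exercise mice overlapped both groups. The fitted log2 fold change on the TMM scale was 1.85 (SE 0.54) in NASH against Control and 1.22 without NASH replicate 19. In NASH+Exercise against NASH it was -0.88 (SE 0.50), or -0.28 without that mouse.

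Krt7 (chr15:101412403-101427806) was 0.31, 1.26 and 0.44 TPM in Control, 1.75, 5.98 and 0.97 in NASH and 1.26, 0.62 and 0.54 in NASH+Exercise. The groups overlapped, since Control replicate 4 was higher than NASH replicate 20. Its log2 fold change in NASH against Control was 1.54 (SE 0.72) and 0.52 without NASH replicate 19. In NASH+Exercise against NASH it was -1.52 (SE 0.70), or -0.52 without that mouse. Krt23 (chr11:99477973-99493120) was 2.1, 2.36 and 5.05 TPM in Control, 3.12, 4.69 and 3.68 in NASH and 2.76, 0.64 and 2.41 in NASH+Exercise. It was the member that departed most from the others, and neither Ath diet group was separate from Control in it. All NASH mice were above all NASH+Exercise mice in TPM, but not in TMM-normalized CPM. NASH+Exercise replicate 18 was the lowest of all mice, and the log2 fold changes were -0.13 (SE 0.43) in NASH against Control, -0.27 without NASH replicate 19, and -0.81 (SE 0.45) in NASH+Exercise against Control. Between NASH+Exercise and NASH it was -0.68 (SE 0.45), or -0.55 without NASH replicate 19.

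The claudins Cldn4 and Cldn7 close the space between epithelial cells. Cldn4 (chr5:134945123-134946934) was 0.09, 0.04 and 0.05 TPM in Control, which stands for 2, 1 and 1 counts, then 0.63, 3.0 and 0.49 TPM in NASH (14, 65 and 11 counts) and 0.40, 0.08 and 0.31 TPM in NASH+Exercise (9, 2 and 8 counts). The NASH mice were above every mouse of the other groups, and NASH+Exercise overlapped Control. With so few counts the level is best given as a ratio of summed counts, scaled by library size times its TMM factor. This ratio was 17.2 for NASH over Control (95% exact interval 6.51 to 64.7, which covers counting error only). NASH replicate 19 gave 65 of the 90 NASH counts, and without it the ratio was 7.38 (2.55 to 29.2). For NASH+Exercise over Control it was 4.13 (1.37 to 16.7). The fitted log2 fold change of NASH+Exercise against NASH was -2.01 (SE 0.71), or -0.81 without that mouse. Cldn7 (chr11:69964779-69967886) was 0.37, 1.04 and 0.26 TPM in Control, 1.75, 5.73 and 1.30 in NASH and 1.16, 0.81 and 1.2 in NASH+Exercise. All NASH mice were above all mice of the other groups in TPM. In TMM-normalized CPM, Control replicate 4 (1.06) and NASH+Exercise replicate 22 (1.07) were above NASH replicate 20 (0.893), so the separation depends on the scale. The log2 fold change was 1.81 (SE 0.65) in NASH against Control, 0.94 without NASH replicate 19, and -1.11 (SE 0.60) in NASH+Exercise against NASH, -0.25 without it.

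Epcam, a cell adhesion molecule of epithelia (chr17:87635979-87651127), was 0.89, 1.31 and 1.33 TPM in Control, 3.18, 10.8 and 2.61 in NASH and 2.62, 1.02 and 1.17 in NASH+Exercise. Its NASH mice were all above Control, and NASH+Exercise replicate 8 was at the level of NASH replicate 20. The log2 fold change was 1.74 (SE 0.52) in NASH against Control and 0.87 without NASH replicate 19. Against NASH, NASH+Exercise differed by -1.48 (SE 0.51), or -0.63 without that mouse. Against Control it differed by 0.26 (SE 0.54).

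Muc1, a transmembrane mucin (chr3:89229056-89233381), was 0.29, 0.60 and 0.23 TPM in Control, 2.52, 7.58 and 1.29 in NASH and 1.88, 1.21 and 1.55 in NASH+Exercise. Every mouse on the Ath diet was above every Control mouse, with overlap between NASH and NASH+Exercise. Against Control the log2 fold change was 2.79 (SE 0.64) in NASH, 1.86 without NASH replicate 19, and 1.84 (SE 0.66) in NASH+Exercise. The difference between the trained and the sedentary mice, -0.95 (SE 0.55), shrank to -0.04 without NASH replicate 19.

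Prom1, a membrane protein of apical protrusions also known as CD133 (chr5:43993621-44102047), was 0.19, 0.50 and 0.24 TPM in Control, 0.95, 2.41 and 0.57 in NASH and 0.45, 0.33 and 0.37 in NASH+Exercise. The NASH+Exercise mice were all below the NASH mice and within the range of Control. NASH was above Control in every mouse in TPM, but not in CPM, where Control replicate 4 (1.45) exceeded NASH replicate 20 (1.06). The log2 fold change in NASH against Control was 1.36 (SE 0.54), or 0.60 without NASH replicate 19. Its log2 fold change was -1.31 (SE 0.53) in NASH+Exercise against NASH, -0.57 without NASH replicate 19, and 0.05 (SE 0.58) against Control. GENCODE places an antisense gene and a transcript of the same strand over Prom1, and the library's strandedness is not given in the sources used here, so some of its reads could belong to them.

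Cd24a encodes a glycoprotein that bile duct cells share with B cells, granulocytes and red cell precursors (chr10:43579169-43584265). It was 1.24, 1.53 and 2.42 TPM in Control, 9.70, 22.2 and 7.67 in NASH and 6.98, 3.99 and 3.13 in NASH+Exercise. This gene alone among the 10 had 3 separate groups, with NASH above NASH+Exercise and NASH+Exercise above Control in every mouse. Its log2 fold changes were 2.48 (SE 0.39) in NASH against Control, 1.93 without NASH replicate 19, 1.29 (SE 0.40) in NASH+Exercise against Control and -1.19 (SE 0.36) in NASH+Exercise against NASH, the last -0.66 without NASH replicate 19. Markers of neutrophils were higher in both groups on the Ath diet. The summed TPM of 8 neutrophil markers was 8.81 to 16.7 in Control mice, 90.4 to 116 in NASH mice and 53.0 to 87.5 in trained mice, and that of 7 B cell markers was 2.72 to 8.43, 9.93 to 12.9 and 3.63 to 7.54 in the same order, with overlap between Control and NASH+Exercise. The erythroid list (8 markers) was 1160 to 1570, 1340 to 2390 and 1300 to 2160, with overlap between all groups. Their part in the level of Cd24a was not tested.

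Sox9 (chr11:112782210-112787757) was the most abundant of the 10 per length in Control, with 6.04, 5.41 and 4.70 TPM, and had 14.2, 16.8 and 6.51 TPM in NASH and 5.04, 13.4 and 4.95 TPM in NASH+Exercise. NASH replicates 5 and 19 and NASH+Exercise replicate 18 were high, and the other mice on the Ath diet lay close to Control. The NASH mice were all above Control in TPM, by a small margin in replicate 20. In TMM-normalized CPM, NASH replicate 20 (14.4) was below Control replicates 3 and 4 (16.9 and 17.7), so the separation depends on the scale. The mouse that was high in Sox9 in the trained group, replicate 18, was in CPM the lowest of its group in 7 of the 10 genes. The log2 fold change against Control was 0.75 (SE 0.44) in NASH, 0.51 without NASH replicate 19, and 0.39 (SE 0.44) in NASH+Exercise, and the latter was -0.26 without NASH+Exercise replicate 18. Between NASH+Exercise and NASH it was -0.35 (SE 0.43), or -0.13 without NASH replicate 19.

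**Figure D2:**
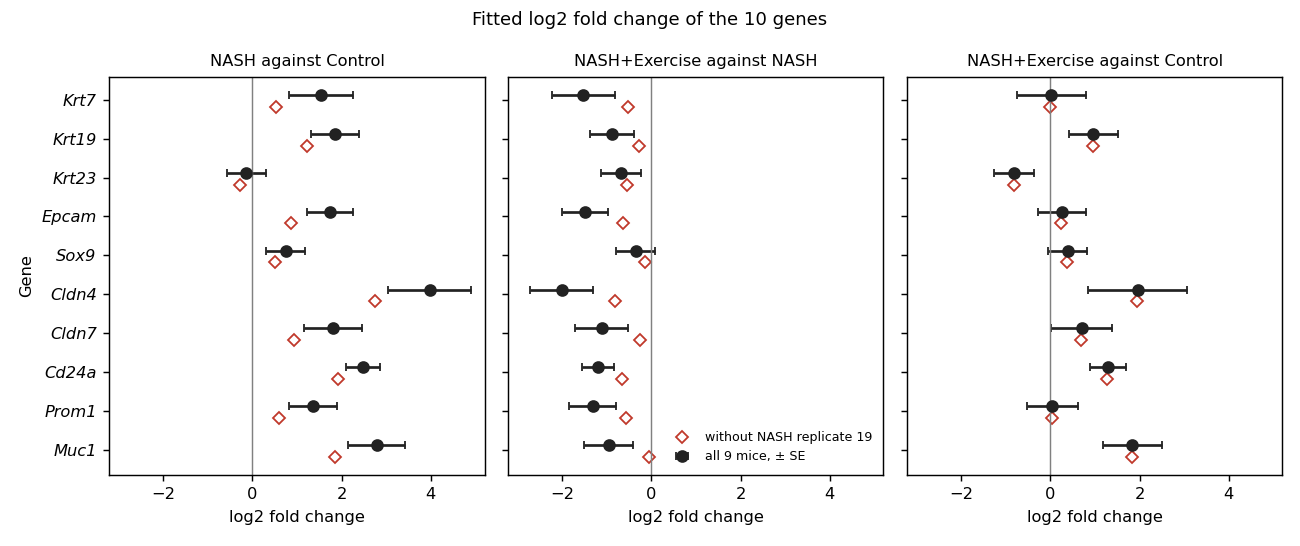
Fitted log2 fold change of each gene in the 3 comparisons (edgeR, TMM scale), with filled points and SE bars for all 9 mice and open diamonds for the fit without NASH replicate 19. All 10 points of NASH+Exercise against NASH lie below 0, and in that comparison each diamond lies nearer to 0 than its point, that of Muc1 at -0.04.

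The order of levels changed between groups. In mean TPM, Control ran from Sox9 (5.38 ± 0.67, SD, n = 3) over Krt23 (3.17 ± 1.63) and Cd24a (1.73 ± 0.615) down to Prom1 (0.31 ± 0.166) and Cldn4 (0.06 ± 0.0265). NASH ran from Cd24a (13.2 ± 7.85) and Sox9 (12.5 ± 5.37) over Krt19 (6.72 ± 4.76) and Epcam (5.55 ± 4.6) down to Cldn4 (1.37 ± 1.41) and Prom1 (1.31 ± 0.971). Neighbours in these orders overlapped in every case but Prom1 and Cldn4 in Control. In NASH+Exercise, where Sox9 (7.79 ± 4.85) and Cd24a (4.7 ± 2.02) led, Muc1 was separate from Cldn7 and Krt7 from Prom1, and the other neighbours overlapped.

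In NASH against Control, 5 of the 10 genes passed the limits set for all genes, an adjusted p under 0.05 with a log2 fold change beyond 1 in either direction. These were Krt19, Epcam, Cldn4, Cd24a and Muc1, all of them higher. Of all 13619 genes tested, 15.3% were called up in this comparison. As the genes were chosen with this contrast known, nothing is read from the count. It was 3 (Cd24a, Cldn4 and Muc1) without NASH replicate 19, without Control replicate 3 or without Control replicate 29, and 7 without Control replicate 4 or without NASH replicate 20. The median log2 fold change of the 10 was 1.78 beside 0.01 for all genes tested, and 0.9 without NASH replicate 19. In CPM the NASH mice were all above the Control mice in 5 of the 10, beside 27.4% of all genes, and these were the 5 called.

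Between NASH+Exercise and NASH, 0 of the 10 genes were called by edgeR, where 0.0367% of all genes were called down and 0.103% up, and 4 of the 10 had an unadjusted p under 0.05, beside 15.3% of all genes. DESeq2 on the 6 mice called Cd24a down, where it called 0.937% of all genes down. As before, nothing is read from these counts. Each of the 10 had a log2 fold change below 0, from -2.01 to -0.35 with a median of -1.15, which was -0.53 without NASH replicate 19. In CPM the trained mice were all below the sedentary mice in 3 genes (Cldn4, Cd24a and Prom1), beside 14.9% of all genes. In NASH+Exercise against Control, edgeR called Cd24a (10.4% of all genes were called up), and the median log2 fold change of the 10 was 0.55. That call was lost without Control replicate 3, 4 or 29 and without NASH+Exercise replicate 8 or 18, and Muc1 was called as well without NASH replicate 19 (where 10.1% of all genes were called up) or 20. Without Control replicate 4, Muc1 was the gene called. Muc1 and Cd24a were higher in all 3 trained mice than in all Control mice (2 of 10, beside 21.5% of all genes). Each pair of the 3 comparisons shares 1 group of mice, so their values are not independent.

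The profile over the 9 mice was much alike in most members. After each gene's log2 CPM was centred on its mean over the mice, Prom1, Epcam and Cldn7 lay closest to the mean of the 10 (root mean square distance 0.246, 0.285 and 0.312 on the log2 scale) and Sox9 and Krt23 farthest (0.723 and 0.971). The closest pairs were Krt19 with Cldn7 (0.25) and Krt7 with Prom1 (0.254). Control mice differed too: in CPM replicate 4 was the highest of its group in 7 of the 10 genes and the lowest in 0. Of all other genes tested, the 8 nearest to the mean profile were Mex3a (0.238), Scara3, Anxa13, Elovl7, D630003M21Rik, Ninl, Ace and Sphk1 (0.294). Of these, Anxa13 had been placed among the duct genes below. The distances describe 9 mice in 3 groups and were not tested.

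**Figure D3:**
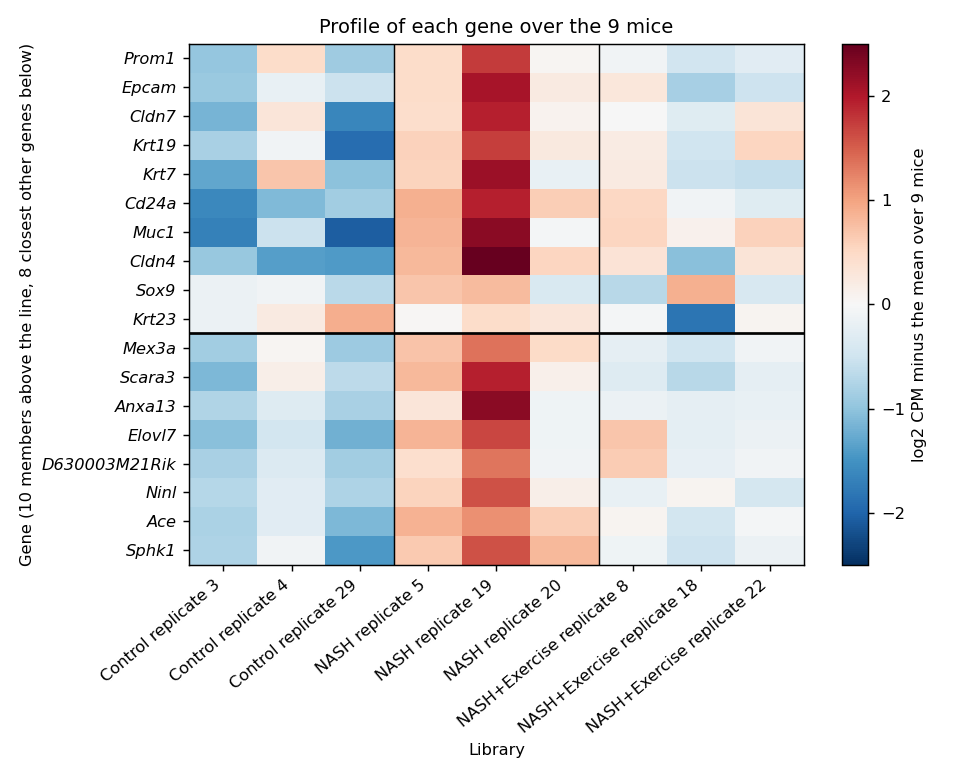
Centred log2 CPM (log2 CPM minus the gene's mean over the 9 mice, as colour) of the 10 genes above the line, ordered by distance to their mean, and of the 8 closest other genes below it. NASH replicate 19 is the darkest red column, with 1.78 for the mean of the 10 genes, and Krt23 and Sox9 at the foot of the upper block depart from the pattern in NASH+Exercise replicate 18.

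Duct genes outside the set were tested in the same fit, in 6 lists of 90 genes by function, of which 88 were in the files and 70 had enough counts. These lists were also chosen with earlier results of these data known, so their calls and p-values are a description and no independent check. Some of the 70 genes passed the low count filter only through the Ath diet groups, and were bound to differ from Control. Examples are Mmp7 (3, 8 and 7 counts in the Control mice), Krt80 (5, 1 and 7), Hey1 (7, 4 and 6) and Tff1 (6, 1 and 1). Others are Ap1m2 (3, 3 and 3), Spint1 (4, 11 and 9), Tspan8 (6, 9 and 11) and Kcnn4 (6, 11 and 9). Ehf (7.01, 8.54 and 11), Elf3 (6, 13 and 13) and Tff3 (22, 26 and 7) belong here too. For these genes a p-value against Control is no evidence of a difference. In NASH against Control, 29 of the 70 rose and 1 fell (edgeR's quasi-likelihood F test, adjusted by Benjamini-Hochberg over 13619 genes), beside 15.3 and 3.03% of all genes. Without NASH replicate 19 the counts were 21 up, where 12.9% of all genes were called, and 1 down. In NASH+Exercise against Control 15 rose and 1 fell, beside 10.4 and 3.07%. Between NASH+Exercise and NASH edgeR called 0 of the 70, with 24 at an unadjusted p under 0.05 beside 15.3% of all genes. DESeq2 called 1 of them up and 6 down, beside 0.58% and 0.937% of the 13454 genes to which it gave an adjusted p.

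Of the genes for bile secretion and transport, 4 of 8 tested rose in NASH (15.3% of all genes) and 3 in NASH+Exercise (10.4%) against Control. Slc10a2, the apical bile salt transporter by which duct cells take bile salts back, was 1.04 to 3.14 TPM in Control mice, 13.1 to 20.0 in NASH mice and 11 to 18.1 in trained mice. Both groups on the Ath diet were above Control with log2 fold changes of 2.41 (SE 0.30, edgeR adjusted p = 0.00023) and 2.65 (SE 0.30, edgeR adjusted p = 0.000217). The potassium channel gene Kcnn4 rose by 2.69 (SE 0.41, edgeR adjusted p = 0.000547) in NASH and by 1.62 (SE 0.42, edgeR adjusted p = 0.0174) in NASH+Exercise, the latter no longer called without Control replicate 3 or NASH+Exercise replicate 8 (1.41 and 1.42). Slc5a1, a sodium-glucose transporter, rose by 2.54 (SE 0.31, edgeR adjusted p = 0.000154) and 1.62 (SE 0.32, edgeR adjusted p = 0.00388). Slc5a1 was also the gene of this list with the smallest p between NASH+Exercise and NASH, where its log2 fold change of -0.91 (SE 0.28, edgeR adjusted p = 0.18) did not pass. The secretin receptor gene Sctr and Cftr were too low to be tested. They are named here after their values were seen, since Sctr was 2.03 TPM in NASH replicate 19 and at most 0.31 elsewhere, and Cftr 0.6 TPM there and at most 0.08 elsewhere.

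Transcription factors of the duct lineage and the Notch pathway, which directs cells to the biliary fate, had 5 of 12 genes up in NASH and 2 in NASH+Exercise against Control. Of all genes, 15.3% and 10.4% were called up in these comparisons. The epithelial ETS factor Elf3 was 0.25 to 0.58 TPM in Control mice, 3.75 to 10.2 in NASH mice and 3.14 to 6.96 in trained mice. Its log2 fold changes against Control were 3.42 (SE 0.45, edgeR adjusted p = 0.000265) and 3.37 (SE 0.45, edgeR adjusted p = 0.000453). Hey1, a target of Notch, rose by 2.19 (SE 0.34, edgeR adjusted p = 0.000615) and 2.08 (SE 0.34, edgeR adjusted p = 0.0013). Ehf, a factor related to Elf3, was 0.13 to 0.22 TPM in Control mice, 0.71 to 3.26 in NASH mice and 0.23 to 0.57 in trained mice. It rose in NASH by 2.87 (SE 0.56, edgeR adjusted p = 0.00267), or 2.04 without NASH replicate 19. Its change of -1.80 (SE 0.50) in NASH+Exercise against NASH missed the threshold in edgeR (adjusted p = 0.158), was called by DESeq2 and was -0.99 without NASH replicate 19. Onecut1, a factor of duct and hepatocyte development, had a log2 fold change of -0.06 (SE 0.61) in NASH, 0.26 without NASH replicate 19, and was not called.

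In the list of ductular reaction and progenitor genes, 9 of 14 rose and 1 fell in NASH, and 3 rose and 1 fell in NASH+Exercise against Control. Shares over all genes were 15.3% up and 3.03% down in NASH, and 10.4% and 3.07% in NASH+Exercise. Mmp7, a matrix protease of injured epithelia, was 0.26 to 0.64 TPM in Control mice, 3.52 to 26.7 in NASH mice and 0.86 to 2.62 in trained mice. The increase in NASH was 4.15 (SE 0.87, edgeR adjusted p = 0.00525) and 2.67 without NASH replicate 19, where it was still called. Spp1 (osteopontin), which duct cells and macrophages both make, was 17.5 to 27.4 TPM in Control, 115 to 117 in NASH replicates 5 and 20, 520 in NASH replicate 19 and 51.6 to 111 in NASH+Exercise. It rose by 3.09 (SE 0.55, edgeR adjusted p = 0.00225) in NASH, 2.05 without NASH replicate 19, and by 1.64 (SE 0.53, edgeR adjusted p = 0.0484) in NASH+Exercise, a call that was lost without any 1 of the 6 mice compared (1.34 to 1.82). The tetraspanin gene Tspan8 rose by 3.09 (SE 0.52, edgeR adjusted p = 0.00122) in NASH, and 2.30 without NASH replicate 19. Lamb3, a chain of the basement membrane protein laminin-332, fell by 2.69 (SE 0.34, edgeR adjusted p = 0.000218) in NASH and by 3.32 (SE 0.36, edgeR adjusted p = 0.000141) in NASH+Exercise. Cd44 and Tnfsf12, which white blood cells express as well, rose by 2.11 (SE 0.11, edgeR adjusted p = 5.04e-06) and 1.74 (SE 0.14, edgeR adjusted p = 2.38e-05) in NASH+Exercise against Control. In NASH against Control they rose by 2.62 (SE 0.11, edgeR adjusted p = 1.53e-06) and 1.73 (SE 0.14, edgeR adjusted p = 1.37e-05). Between NASH+Exercise and NASH, Cd44 had the smallest p of the list, with -0.50 (SE 0.10, edgeR adjusted p = 0.112).

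Among epithelial junction and keratin genes, 6 of 23 rose in NASH and 4 in NASH+Exercise against Control, beside 15.3% and 10.4% of all genes. Krt80 rose by 3.45 (SE 0.69, edgeR adjusted p = 0.00358) and 3.55 (SE 0.69, edgeR adjusted p = 0.00422), and Spint1, an inhibitor of membrane proteases, by 2.85 (SE 0.48, edgeR adjusted p = 0.00111) in NASH, or 2.22 without NASH replicate 19. Ap1m2, a clathrin adaptor of epithelia, rested on 9 counts over the Control mice. Its ratio of NASH to Control was 5.53 (95% exact interval 2.74 to 12.6, counting error only), or 3.94 (1.82 to 9.43) without NASH replicate 19, and it was not called without any 1 of the Control mice or without NASH replicate 19. Cdh1 (E-cadherin) and the claudin gene Cldn14 rose in NASH+Exercise against Control by 1.69 (SE 0.30, edgeR adjusted p = 0.00285) and 1.25 (SE 0.27, edgeR adjusted p = 0.00659), the latter not called without NASH+Exercise replicate 22 (0.94). In NASH against Control, Cdh1 was called too (1.64, SE 0.30, edgeR adjusted p = 0.00229) and Cldn14 was not (0.44, SE 0.27). Krt8 and Krt18, the keratins that hepatocytes share with ducts, were far more abundant than the duct keratins, with 130 to 139 and 178 to 263 TPM in Control. Krt8 rose in NASH against Control by 1.12 (SE 0.23, edgeR adjusted p = 0.00348), or 1.18 and still called without NASH replicate 19. Krt8 was also the other gene of this list called in NASH+Exercise against Control, by a log2 fold change of 1.01 (SE 0.23, edgeR adjusted p = 0.00844), which was 0.99 and not called without NASH replicate 19. Ocln, a tight junction protein, had the smallest p of the list between NASH+Exercise and NASH (-0.88, SE 0.21, edgeR adjusted p = 0.128).

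Only 3 of the mucin and trefoil genes could be tested. Tff3, a trefoil peptide that protects mucous surfaces, was 1.40 to 4.30 TPM in Control mice, 27.4 to 44.0 in NASH mice and 58.0 to 103 in trained mice, with no overlap between the groups. Its log2 fold change was 3.04 (SE 0.45, edgeR adjusted p = 0.000683) in NASH and 4.55 (SE 0.45, edgeR adjusted p = 0.000114) in NASH+Exercise, each against Control. Unlike the 10 duct genes it was higher after training than in NASH, by 1.51 (SE 0.36), which missed the threshold in edgeR (adjusted p = 0.131) and passed in DESeq2. Tff1 rose by 1.89 (SE 0.63, edgeR adjusted p = 0.0382) and 1.96 (SE 0.63, edgeR adjusted p = 0.0445) against Control. DESeq2 called Tff1 in neither comparison. In both comparisons Tff1 was not called without Control replicate 4 or 29, NASH replicate 19 or 20, or NASH+Exercise replicate 8 or 18 (1.45 to 1.89 and 1.54 to 1.96).

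Genes of the primary cilium, the sensor of bile flow on the duct cell, had 3 of 10 up in NASH and 1 in NASH+Exercise against Control. Over all genes the shares called up were 15.3% and 10.4%, so the count in NASH+Exercise was near the share. Bicc1 rose by 2.06 (SE 0.37, edgeR adjusted p = 0.00174) and Pkhd1, the gene of recessive polycystic disease, by 1.28 (SE 0.24, edgeR adjusted p = 0.00228) in NASH. Bicc1 was lower in NASH+Exercise than in NASH by -1.31 (SE 0.35), which edgeR did not call (adjusted p = 0.151) and DESeq2 did. Cys1 had increases of 1.16 (SE 0.33, edgeR adjusted p = 0.02) and 1.07 (SE 0.33, edgeR adjusted p = 0.0382). The former was not called without Control replicate 4 or 29 or NASH replicate 19 (0.79 to 1.02), and the latter not without Control replicate 4 or 29, NASH replicate 20, or NASH+Exercise replicate 8 or 22 (0.91 to 1.07).

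Some of these genes stood at similar levels with and without training. With NASH+Exercise set against NASH, Elf3 differed by a log2 fold change of -0.05 (SE 0.36), Hey1 by -0.10 (SE 0.28), Slc10a2 by 0.24 (SE 0.28), Tnfsf12 by 0.01 (SE 0.13) and Cdh1 by 0.05 (SE 0.29). Without NASH replicate 19, Elf3 and Hey1 turned to 0.39 and 0.09. The 10 members were all below 0 in that comparison and the median of the 70 tested genes was -0.20. Whether the 2 sets of genes differ was not tested.

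**Figure D4:**
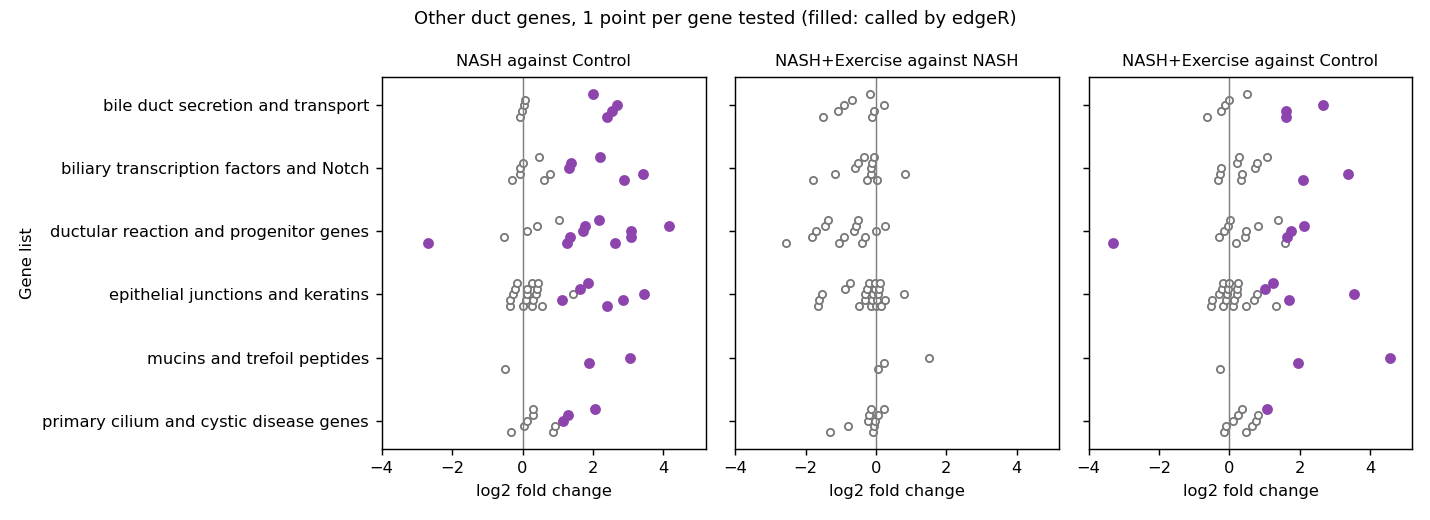
Log2 fold change of the 70 other duct genes tested, with 1 row of points per list and 1 panel per comparison, filled where edgeR called the gene. Filled points number 30 in NASH against Control, 0 in NASH+Exercise against NASH and 16 in NASH+Exercise against Control, and the filled points on the left are Lamb3.

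Markers of several other liver cells moved along with the 10 genes, whereas those of hepatocytes were lower in NASH than in Control. The summed TPM of the 10 was 12.9 to 15.8 in Control mice, 28.4 to 91.4 in NASH mice and 18.9 to 25.8 in trained mice. In the same order, 10 macrophage markers summed to 58.9 to 118, 862 to 1330 and 563 to 753, 9 stellate cell and fibroblast markers to 72.7 to 186, 253 to 436 and 156 to 235, and 7 T and NK cell markers to 2.41 to 3.71, 15.2 to 23.4 and 7.73 to 11.2. NASH replicate 19 was the highest mouse in each of these 3 lists as well, at 16.8, 3.55 and 7.84 times the Control mean, and at 6.23 times in the 10 genes. The same mouse was highest in the neutrophil list (9.51, with 8.93 and 7.41 in NASH replicates 5 and 20) and in the intestine list (1.69, with 1.62 in NASH replicate 20). In the B cell, endothelial, erythroid and mesothelial lists another NASH mouse was the highest. The 12 hepatocyte markers summed to 119000 to 127000 in Control mice, 99200 to 121000 in NASH mice and 84300 to 109000 in trained mice, so hepatocyte RNA was present at a high level in all mice. In NASH against Control all 12 had a log2 fold change below 0 (median -0.74), and 3 were called down, beside 3.03% of all genes. In NASH+Exercise against NASH, 8 of the 12 were above 0 and 4 below (median 0.25). The lower range of the summed TPM in trained mice was thus not matched on the TMM scale. Endothelial markers (7 genes) ran from 45.9 to 128 and erythroid markers (8 genes) from 1160 to 2390, with groups that overlapped. Mesothelial cells, which cover the liver and also carry Krt7 and Krt19, had 4 of 6 markers under 1 TPM in all mice (Msln, Upk3b, Lrrn4 and Upk1b), with sums of 0.44 to 1.75, 2.28 to 4.49 and 0.76 to 1.42. Of the pancreas markers 3 were in the files, with sums of 5.67 to 12.6 and Ctrb1 under 1 TPM throughout, and of the intestine markers 5 were, with sums of 90.9 to 237 and Vil1, Muc2 and Cdh17 under 1 TPM. No marker of any list was at 0 in all mice. The part of any of these cells in the levels of the 10 genes was not tested.

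**Figure D5:**
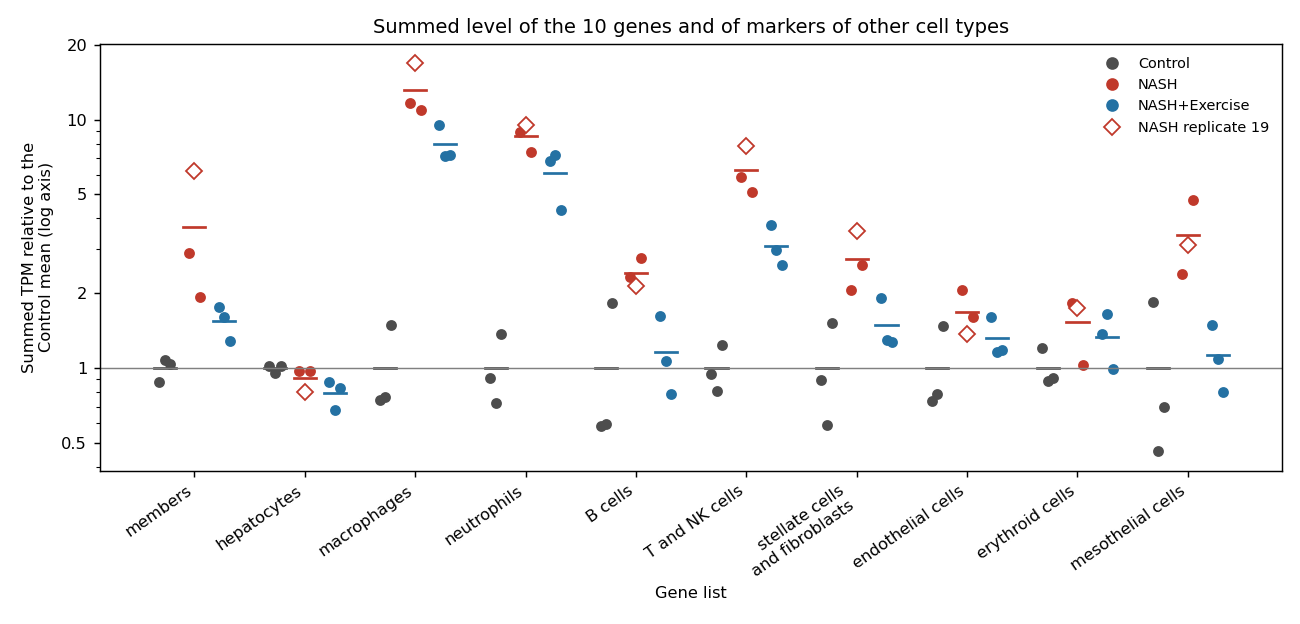
Summed TPM of the 10 genes (members) and of each marker list relative to the Control mean (log axis), with 1 point per mouse, a bar at each group mean and an open diamond for NASH replicate 19. In the 10 genes the diamond is at 6.23 and the other NASH mice at 2.9 and 1.94, while the hepatocyte markers stay between 0.678 and 1.02.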

How the data were processed

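Liver RNA of 9 mice, 3 per group, was sequenced with 1 library per mouse. The authors deposited estimated counts per gene, which are not normalized, and FPKM and TPM values, listed by Entrez Gene identifier. The submitters' processing notes name HISAT2 2.1.0, Bowtie2 2.2.5, RSEM 1.2.8 and GRCm38.p6. RSEM divides reads shared between genes, which gave the 10 genes few fractional counts (2 mice each in Krt7 and Sox9). FPKM values were not used. NASH replicate 5 has a file that repeats all 9 mice, and 0 of 428304 values differed from the other files. RefSeq symbols of GRCm38.p6 matched 17728 identifiers.

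Counts were rounded, filtered with filterByExpr (at least 10 counts, total 15), scaled by TMM and fitted with edgeR 4.0.16 in R 4.3.3 (robust quasi-likelihood F test, all 9 mice, group as the only term, 6 residual degrees of freedom), and p-values were adjusted by Benjamini-Hochberg over 13619 genes. Calls needed an adjusted p under 0.05 together with a log2 fold change beyond 1 in either direction, as in the study's methods. The study's tool, DESeq2 1.42.0, served as an alternative on the 6 mice of a comparison. Others were RLE scaling, library size alone, no filter, 6 mice in edgeR, limma 3.58.1 on log2(TPM + 1), and each mouse left out. The scripts were tested on simulated counts. TPM compares genes, and fold changes are on the TMM scale. Each library is a separate mouse, so p-values measure the spread between mice.

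The 10 genes and all lists were chosen with earlier results of these data known. Beside the 10, the text names from each duct list up to 3 called genes per direction and comparison with the largest change, or the gene with the smallest p, the 8 genes with the closest profile, and a few named after their values were seen (Onecut1, Sctr, Cftr, Ggt1, Krt8 and Krt18, and for the levels with and without training Elf3, Hey1, Slc10a2, Tnfsf12 and Cdh1). The 7 promoter motifs were chosen from general knowledge. Of the duct lists, 1 gene is counted but not reported here by name. Of the 10 genes Cldn4 is the one whose precision depth limits most.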

Additional observations from a re-analysis of the deposited data

How the results depend on the processing

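Each result was recomputed under 15 alternatives. For the 10 duct genes, the number called in NASH against Control was 5 and ran from 3 to 7 when 1 mouse was left out. In NASH+Exercise against Control it was 1 and became 2 with the 6 mice of the comparison alone or with DESeq2, 0 with limma on log2(TPM + 1), and 0 to 2 with 1 mouse left out. In NASH+Exercise against NASH it was 0 with edgeR and 1 with DESeq2. Other duct genes called in NASH+Exercise against NASH numbered 0 with edgeR, 7 with DESeq2 and 1 with limma. They ran from 22 to 30 and from 12 to 17 when 1 mouse was left out of NASH and of NASH+Exercise, each against Control. Over all genes, 19 were called in NASH+Exercise against NASH, 204 with DESeq2, 103 with limma and 0 to 34 with 1 mouse left out, and in NASH+Exercise against Control the 1836 calls became 1068 with limma. Of 449 recomputed log2 fold changes of the 10 genes, 430 moved by less than the spread between mice and 19 by more. Scaling by library size alone put the median of all genes at 0.36 in NASH against Control and at -0.23 in NASH+Exercise against NASH, so changes are given relative to TMM. Of 583 recomputed values of named duct genes, 536 kept their side of the threshold, 43 lost their call and 4 gained one. Some differences near 0 turned in sign without NASH replicate 19, as given above for Elf3, Hey1 and Onecut1. No paired analysis was possible because the groups share no replicate number.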
